A study of Mus musculus with 33 samples.

Results

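The genes described here are 28 genes of cholesterol synthesis and of its control by the sterol regulatory element-binding proteins (SREBPs), out of 54347 gene rows in a table of mouse ovary RNA. They come from a list of mouse symbols, matched to the Ensembl identifiers of the table. The matching uses no measured value, but the list was chosen with earlier results of these data known. All 28 were found, and all 28 passed the filter on low counts in each of the 3 experiments. By role, 20 encode enzymes: 8 make isoprenoid units from acetyl-CoA (the mevalonate arm), 3 make squalene and lanosterol, and 9 turn lanosterol into cholesterol. Another 5 belong to the SREBP control circuit and 3 to sterol transport.

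The study measured RNA of mouse ovary in 33 libraries, to find transcripts that respond to follicle-stimulating hormone (FSH) or vary over the estrous cycle. Experiment 1 held 3 libraries each labelled WT, Fshb(+/-) and Fshb(-/-); Fshb encodes the subunit that is specific to FSH. Experiment 2 set 4 libraries labelled Fshb(-/-) beside 4 with the label Fshb(-/-) HFSHB. The second label adds an FSHB transgene to the mutation, and that group is called the rescue below. Experiment 3 covered the stages DE, PE and E with 4 libraries apiece, all with the genotype label WT, and 4 whose stage label is KO (anestrus) while their genotype label is also WT. No stage is given for the animals of experiments 1 and 2. The sources used here do not give strain, age, the transgene's promoter or whether libraries of a group came from separate animals, so p-values rest on the spread among these samples, and that spread may be technical. Total counts per library were 13587252 to 16931710 in experiment 1, 19633256 to 23700051 in experiment 2 and 10085367 to 15925103 in experiment 3. The libraries labelled Fshb(-/-) of experiment 1 serve several comparisons there, and those labelled KO (anestrus) serve all comparisons against a stage.

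Cells make cholesterol from acetyl-CoA through mevalonate, farnesyl diphosphate, squalene and lanosterol. When sterols in the endoplasmic reticulum are low, the escort protein SCAP carries SREBPs to the Golgi for cleavage, and the released SREBP-2 turns on most enzyme genes of the pathway; when sterols are high, INSIG proteins hold SCAP back. In the ovary, cholesterol is also the substrate of steroid hormones, and the corpus luteum, which forms from a follicle after ovulation, makes large amounts of progesterone from it.

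Counts of Fshb, the targeted gene, were near 0 in WT of experiment 1 and higher in the other groups of that experiment. Fshb had 1, 1 and 0 counts in WT 1 to 3 of experiment 1, 43, 60 and 106 in Fshb(+/-) 1 to 3, and 68, 79 and 82 in Fshb(-/-) 1 to 3. It had 119 to 184 counts in Fshb(-/-) and 221 to 431 in the rescue of experiment 2, and 90 to 114 in KO (anestrus). Among the stages, all with the genotype label WT, DE had 60 to 198. PE 1 to 4 had 0, 0, 51 and 26, and E 1 to 4 had 50, 170, 0 and 60. Unlike WT of experiment 1, most of these libraries thus held Fshb counts, and E 3 differed from the rest of its group. A gene count does not tell which exons gave the reads, or whether they came from an intact or an altered gene. Groups are therefore named by their labels, and every direction rests on those labels. All 8 granulosa cell markers, which check the ovary label, were above 0 in every library. Markers of other cell types moved with the groups. A luteal index, the mean log2(CPM + 1) of 10 luteal markers, was 5.5 to 6.6 in all libraries labelled Fshb(-/-) or KO (anestrus) and 6.4 to 9.6 in the rest (CPM is a count scaled to the TMM-adjusted size of its library). The same index over 12 oviduct epithelium markers was 4.9 to 5.6 in DE 1, 2 and 4, all PE libraries and E 3, 5.1 in Fshb(+/-) 3, 4.0 in Fshb(-/-) 3 and 3.9 in rescue 2 of experiment 2, but 1.3 in DE 3 and 1.0 to 1.2 in E 1, 2 and 4. In those respects DE 3 and E 3 stood apart from their groups, and in experiment 3 the counts of called members are given with and without both. Single members are given without them where the call changed, and the lists of other genes with all libraries only. Oocyte markers had indices of 6.0 to 6.6 in the libraries labelled Fshb(-/-) or KO (anestrus) and 3.7 to 5.8 in the others. Theca and interstitial markers lay at 7.1 to 8.1 in the former and 4.8 to 6.9 in the latter, macrophage markers at 4.9 to 6.4 throughout, adipocyte markers at 0.8 to 6.7 (highest in DE and PE) and liver markers at 0.6 to 3.0. In such bulk tissue, fewer cells of a type and less RNA per cell cannot be told apart.

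The upstream sequences of 4 members are shown because the enzyme genes moved together between libraries, and because Hsd17b7, Dhcr7 and Scap each passed the test in at least 1 comparison. Hmgcs1 passed in none with all libraries and is the only member searched that has the sterol regulatory element below. They come from RefSeq (GRCm38.p6), run 5′ to 3′ on the gene's strand and end at the base before a RefSeq transcript start. Capitals mark matches, on either strand, to the sterol regulatory element TCACNCCAC, the NF-Y box CCAAT, which reads ATTGG on the other strand, and the E-box CACGTG; matches to the GC box GGGCGG are not in capitals. The windows are chr13:119690101-119690350 (plus strand) for Hmgcs1, chr1:169969206-169969455 (minus strand) for Hsd17b7, chr7:143829964-143830213 (plus strand) for Dhcr7, upstream of a later start inside the annotated gene, and chr9:110333106-110333355 (plus strand) for Scap, overlapping the start of the annotated gene. Dhcr7 has 3 RefSeq starts with a window and Scap has 2, and 1 window of each is shown. The Dhcr7 window shown is the only one of that gene with CCAAT, and its CACGTG match lies in a window not shown. The element TCACNCCAC is a form that SREBPs bind, and NF-Y is a factor that works beside SREBPs at many sterol genes.
Hmgcs1: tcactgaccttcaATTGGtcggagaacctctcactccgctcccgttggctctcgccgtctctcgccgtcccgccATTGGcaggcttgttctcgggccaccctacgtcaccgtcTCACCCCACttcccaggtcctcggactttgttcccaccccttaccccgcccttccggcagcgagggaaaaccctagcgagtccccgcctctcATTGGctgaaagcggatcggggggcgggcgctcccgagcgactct
Hsd17b7: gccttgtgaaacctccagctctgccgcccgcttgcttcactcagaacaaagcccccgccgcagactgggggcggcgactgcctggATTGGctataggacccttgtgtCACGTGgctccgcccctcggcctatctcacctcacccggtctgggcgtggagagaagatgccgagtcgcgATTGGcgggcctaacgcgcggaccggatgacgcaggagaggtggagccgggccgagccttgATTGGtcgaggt
Dhcr7: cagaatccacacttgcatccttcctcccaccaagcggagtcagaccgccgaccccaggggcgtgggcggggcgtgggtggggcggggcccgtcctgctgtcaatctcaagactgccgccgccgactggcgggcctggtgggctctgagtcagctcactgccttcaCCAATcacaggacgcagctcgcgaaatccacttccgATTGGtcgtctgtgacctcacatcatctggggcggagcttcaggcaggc
Scap: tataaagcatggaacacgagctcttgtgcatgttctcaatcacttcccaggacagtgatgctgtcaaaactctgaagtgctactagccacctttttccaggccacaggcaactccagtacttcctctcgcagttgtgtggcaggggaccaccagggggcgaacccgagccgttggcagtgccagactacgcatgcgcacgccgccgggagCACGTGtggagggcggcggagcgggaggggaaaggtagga
Over windows of 300 bases (250 before and 50 after each RefSeq start), 23 of the 28 members could be searched; Fdps, Fdft1, Sqle, Npc1 and Stard4 were not in the table used. CCAAT was found for 21 of the 23, against 42.4% of the tested genes with a window, and the 2 without it are Acat2 and Scap. GGGCGG was found for 21, against 65.8%, and CACGTG for 5 (Hsd17b7, Sc5d, Dhcr7, Scap and Insig1), against 11.3%. TCACNCCAC was found only for Hmgcs1 among the 23, against 1.47% of the tested genes. A match is a run of letters, not a shown binding site, and the lack of one says nothing of the factor.

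The enzyme genes were near even among libraries labelled Fshb(-/-) or KO (anestrus) and uneven among the libraries of most other groups. In experiment 2, the median ratio of the highest to the lowest library over the 20 enzyme genes was 1.23 in Fshb(-/-) and 6.01 in the rescue. All genes with a mean of at least 10 CPM had medians of 1.13 and 1.195 in these 2 groups. In experiment 1 the enzyme medians were 6.15 in WT, 3.60 in Fshb(+/-) and 1.27 in Fshb(-/-), beside 1.18, 1.24 and 1.23 for all such genes. In experiment 3 they were 2.45 at DE, 2.37 at E, 1.73 at PE and 1.27 in KO (anestrus), beside 1.39, 1.28, 1.31 and 1.16. These ratios describe the libraries and were not tested, and groups of 3 and 4 libraries are not equal in range. The 8 members that are not enzymes were less spread by median in the same groups, at 1.68 in the rescue, 1.65 in WT and 1.27 in Fshb(+/-). Insig1 and Stard4 of these 8 did share the spread. Their ratios in those groups were 3.2 to 4.7 for Insig1 and 4.1 to 6.2 for Stard4. Ggps1 and Lbr were the enzyme genes that did not share the spread: their ratios in WT, Fshb(+/-) and the rescue were 1.08 to 1.16 for Ggps1 and 1.01 to 1.11 for Lbr.

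The high libraries were the same ones for most members. In the rescue, replicate 4 was the highest library for 25 of 28 members and replicate 1 the lowest for 26; replicate 4 was the highest for 32.7% of all genes with a mean of at least 10 CPM. WT 1 was the highest of its group for 22 members (32.6% of all such genes) and WT 3 the lowest for 25. Fshb(+/-) 3 was the highest for 25 members (32.4%), DE 3 for 20 (33.2%) and E 2 for 22 (24.2%), while E 3 was the lowest for 19. Hmgcs1, the enzyme that makes HMG-CoA, shows the sequence: it had 854, 276 and 97.3 CPM in WT 1 to 3, 293, 375, 1532 and 1752 in rescue 1 to 4, and 260 to 352 in the 4 Fshb(-/-) libraries of experiment 2. Rescue 1 and 2 thus lay near the Fshb(-/-) libraries for this gene, and rescue 3 and 4 far above them. The luteal index ran the same way in the rescue, at 8.1, 8.5, 8.9 and 9.3 in replicates 1 to 4, and stood at 8.6, 9.0 and 6.4 in WT 1 to 3 and 8.3, 8.3 and 9.6 in Fshb(+/-) 1 to 3. Its part in the spread was not tested. The split of the rescue into these pairs was not particular to the members. Over the genes of the whole table, chi-square over degrees of freedom was 8.51 for rescue 1 with 2 and 5.77 for rescue 3 with 4. Across the pairs it was 48.55 to 65.35.

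**Figure D1:**
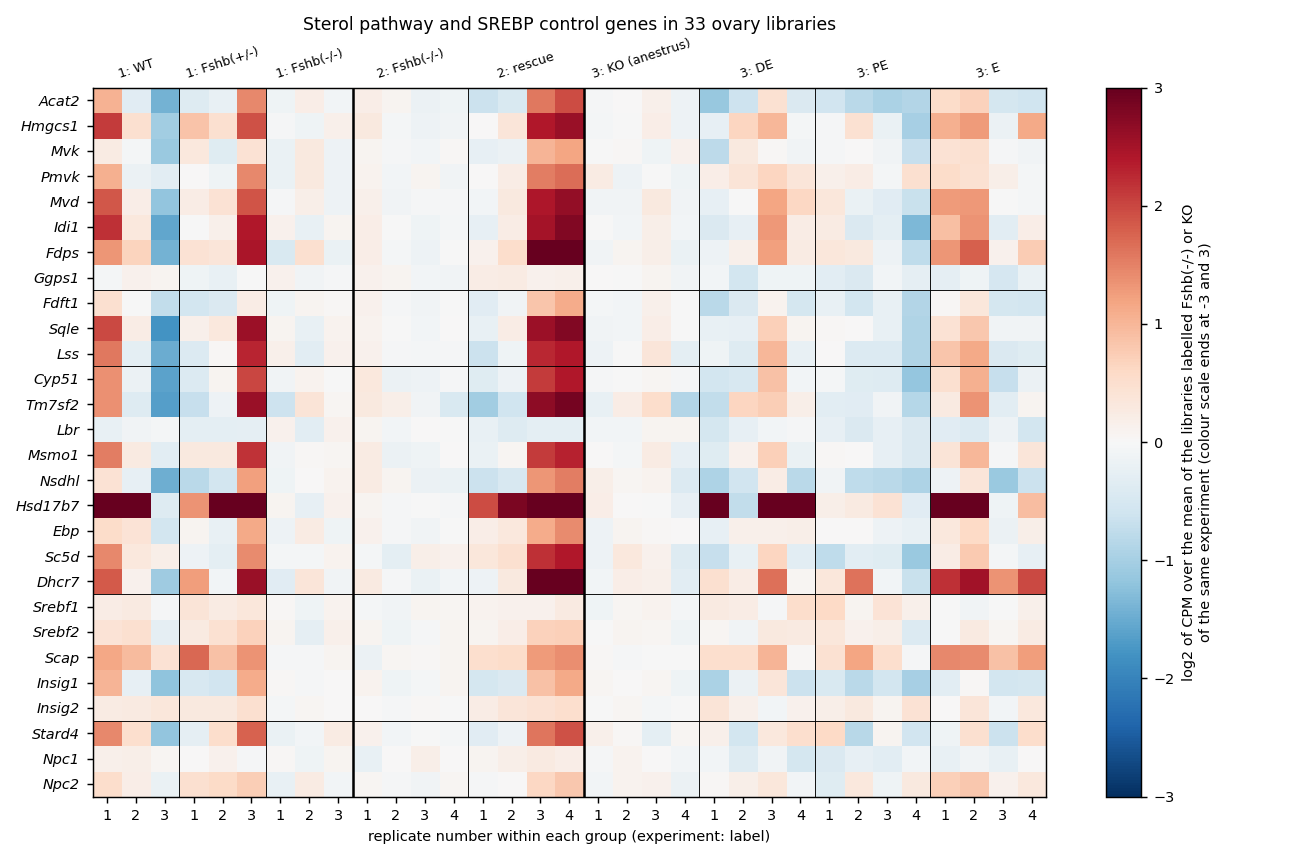
Heat map of the 28 members (rows, ordered by role) in the 33 libraries (columns, grouped by experiment and label); colour gives log2 of CPM over the mean of the libraries labelled Fshb(-/-) or KO (anestrus) of the same experiment, and the scale ends at -3 and 3. Most enzyme rows are red (higher) together in WT 1, Fshb(+/-) 3 and rescue 3 and 4, while Ggps1 and Lbr stay pale.

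**Figure D2:**
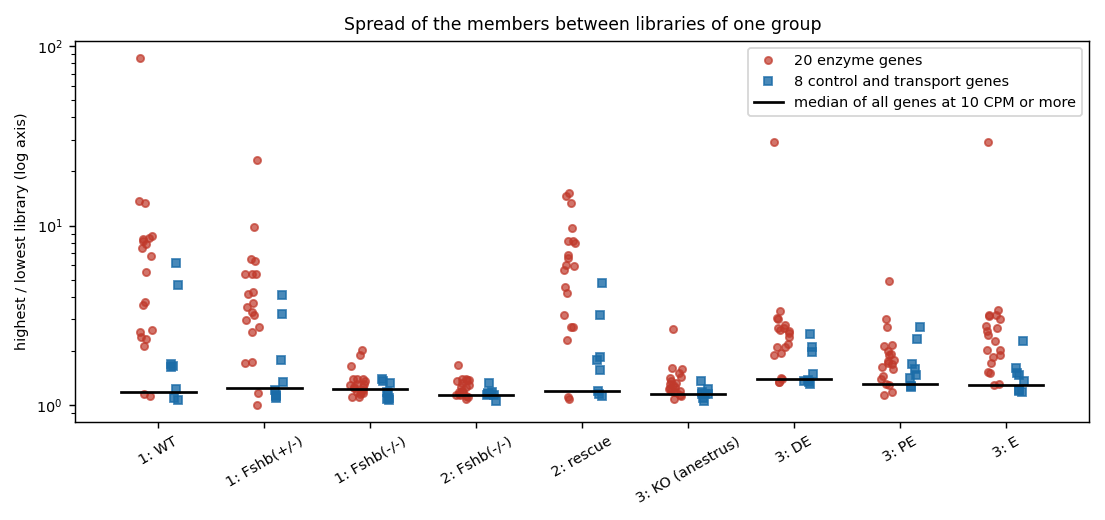
Ratio of the highest to the lowest library (log axis) for each member in each of the 9 groups, with circles for the 20 enzyme genes, squares for the other 8 and a line at the median of all genes with a mean of at least 10 CPM. The circles sit near the line in the groups labelled Fshb(-/-) or KO (anestrus) and mostly above it in WT, Fshb(+/-) and the rescue.

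In experiment 1, no member passed the test (adjusted p under 0.05) between Fshb(-/-) and WT, where 7.87% of the 17223 genes tested did (4.53% higher and 3.34% lower). The edgeR test gave 3 members an unadjusted p under 0.05, and DESeq2 and limma voom each called 2 members lower; without WT 3 edgeR called 1 lower. The median log2 fold change of the members was -0.32, and -0.41 for the 20 enzymes, beside -0.01 for all genes; 4 of 28 were positive. Against Fshb(+/-), 2 members fell in Fshb(-/-), Scap and Insig2, where 17% of all genes were called, 9.1% higher and 7.9% lower; the member median was -0.61. Of the 10 luteal markers 6 fell as well, from a summed 12230 to 23660 CPM in Fshb(+/-) to 3582 to 4370 in Fshb(-/-), and their part was not tested. Between Fshb(+/-) and WT, no member passed (0.0871% of all genes did), edgeR gave none an unadjusted p under 0.05, DESeq2 called none and gave 2, and limma voom called none and gave none.

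Scap, which encodes the SREBP escort (chromosome 9, 110333288 to 110384950), was lower in Fshb(-/-) than in Fshb(+/-). Its values were 206, 206 and 224 CPM in Fshb(-/-) 1 to 3, 472, 407 and 285 in WT 1 to 3, and 699, 392.5 and 536 in Fshb(+/-) 1 to 3. All 3 Fshb(-/-) libraries were below every other library of the experiment. The log2 fold change of Fshb(-/-) against Fshb(+/-) was -1.36 ± 0.23 (SE; edgeR, adjusted p = 0.00569), and every alternative kept it past the threshold (adjusted p 1.8e-07 to 0.0322). Against WT it was -0.87 ± 0.23, with an edgeR adjusted p of 0.05001, just short of the threshold; DESeq2 did call it. An exon of 5830462I19Rik overlaps Scap on the other strand, and whether the counting used strand is not known here.

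Insig2, which encodes an anchor that holds SCAP in the endoplasmic reticulum (chromosome 1, 121304353 to 121332589), was also lower, by less. It stood at 23.9, 25.9 and 25.3 CPM in Fshb(-/-), 29.7, 30.2 and 31.5 in WT and 30.8, 30.8 and 35.1 in Fshb(+/-). The Fshb(-/-) libraries were again the lowest, with no overlap. Its log2 fold change was -0.36 ± 0.10 against Fshb(+/-) (edgeR, adjusted p = 0.0341), a call lost when any 1 of the 6 libraries was left out (adjusted p up to 0.114 over all alternatives), and -0.28 ± 0.10 against WT (adjusted p = 0.112). Insig1, which encodes the other INSIG protein (chromosome 5, 28071363 to 28078662), stood at 113, 107 and 110 CPM in Fshb(-/-), 222, 92.2 and 47.6 in WT and 79.3, 73.9 and 237 in Fshb(+/-). Fshb(-/-) fell inside the range of the other groups, and no difference passed. Of the transcription factor genes, Srebf2 stood at 144 to 192 CPM in Fshb(-/-), 144 to 244 in WT and 211 to 282 in Fshb(+/-), and Srebf1 at 75.6 to 89.1, 81.8 to 100 and 98.7 to 109.

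Hsd17b7 had the largest fold change of the 28 members in both comparisons and did not pass either. It encodes a 3-ketosteroid reductase of the pathway, which also turns estrone into estradiol and is known from the corpus luteum (chromosome 1, 169949535 to 169969241). Its values were 33.6, 26.5 and 34.8 CPM in Fshb(-/-), 2087, 257 and 24.4 in WT and 80.2, 551 and 1854 in Fshb(+/-). WT 3 was as low as the Fshb(-/-) libraries, and WT 1 and Fshb(+/-) 3 were the highest. The log2 fold changes were -4.64 ± 1.64 against WT and -4.71 ± 1.65 against Fshb(+/-), with edgeR adjusted p of 0.131 and 0.0888; DESeq2 called the first lower.

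The other enzyme genes followed the same libraries. Dhcr7, which encodes the last reductase before cholesterol (chromosome 7, 143823145 to 143848410), stood at 58.5, 95.8 and 69.3 CPM in Fshb(-/-), 268, 82.0 and 35.8 in WT, and 178, 70.9 and 449 in Fshb(+/-). Fdps, which makes farnesyl diphosphate (chromosome 3, 89093588 to 89101959), stood at 71.7, 136 and 85.8, at 246, 155 and 36.4, and at 133, 126 and 537 CPM in the same order. Sqle, the squalene epoxidase (chromosome 15, 59315077 to 59331192), stood at 63.01, 50.7 and 64.2, at 235, 68.95 and 17.2, and at 65.4, 73.7 and 350 CPM. For each of these genes WT 3 was below and WT 1 above all Fshb(-/-) libraries, and Fshb(+/-) 3 was far above the rest of its group. Ebp, an isomerase of the later steps (chromosome X, 8185329 to 8193512), showed the same order within narrower limits, at 28.2, 36.9 and 28.3 CPM in Fshb(-/-), 45.7, 41.5 and 21.4 in WT and 32.99, 26.9 and 68.3 in Fshb(+/-). Within WT, the ratio of highest to lowest ran from 5.54 to 13.3 for Acat2, Hmgcs1, Mvd, Idi1, Lss, Cyp51 and Tm7sf2, and from 2.32 to 3.74 for Mvk, Pmvk, Fdft1, Msmo1, Nsdhl and Sc5d.

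Ggps1, Lbr and Npc2 showed little of this. Ggps1, which makes the geranylgeranyl unit of protein prenylation (chromosome 13, 14050659 to 14063488), stood at 54.4, 46.1 and 48.4 CPM in Fshb(-/-), 47.5, 54.4 and 52.6 in WT and 45.6, 42.3 and 49.2 in Fshb(+/-). Lbr, a lamin B receptor with sterol reductase activity (chromosome 1, 181815335 to 181843046), stood at 42.7, 31.2 and 42.5, at 33.4, 35.9 and 37.2, and at 31.8, 31.9 and 31.9 CPM. The groups overlapped for both genes, and exons of Arid4b (Ggps1) and Dnah14 (Lbr) overlap them on the other strand. Npc2, a lysosomal cholesterol carrier (chromosome 12, 84754562 to 84773152), stood at 165, 229 and 181 CPM in Fshb(-/-), 274, 220 and 168 in WT and 265, 284 and 322 in Fshb(+/-). All Fshb(-/-) values were below those of Fshb(+/-), at a log2 fold change of -0.60 ± 0.19 that did not pass (edgeR, adjusted p = 0.0597). Without overlap, 10 of 28 members were lower in Fshb(-/-) than in Fshb(+/-), beside 18.7% of all genes tested, and 3 (Scap, Insig2 and Sc5d) were lower than in WT, beside 17%.

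**Figure D3:**
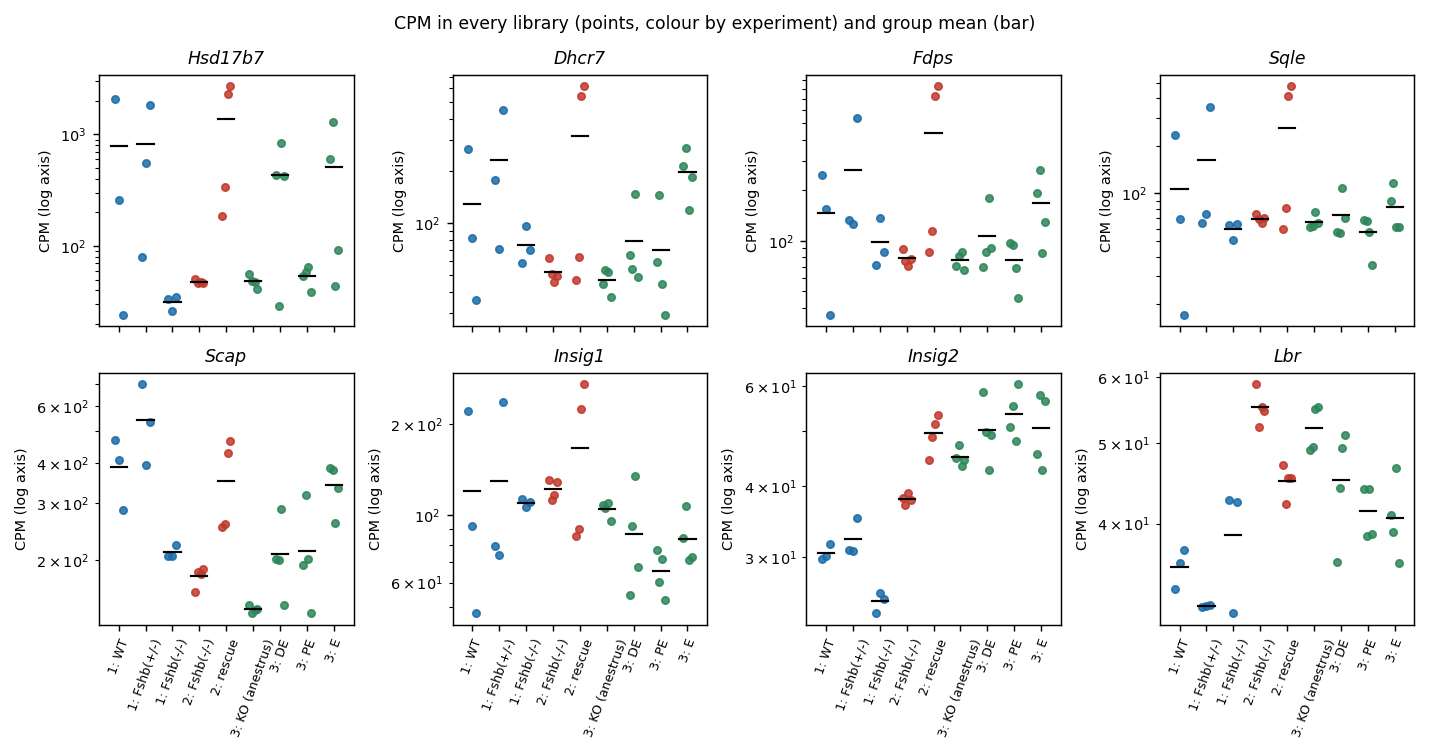
CPM (log axis) of 8 members in every library of the 9 groups; points are libraries, coloured by experiment, and bars are group means. For Hsd17b7, Dhcr7, Fdps and Sqle the rescue points form a low and a high pair. In every rescue library Scap lies above all Fshb(-/-) points of experiment 2, and Lbr lies below those points.

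In experiment 2, 5 members rose and 1 fell in the rescue against Fshb(-/-): Hsd17b7, Scap, Insig2, Ebp and Ggps1 were higher and Lbr was lower. Of all 16871 genes tested 31.9% were called, 15.8% higher and 16.2% lower. The member median was a log2 fold change of 1.05, and 1.51 for the 20 enzymes, beside 0.00 for all genes, and 27 of 28 members were positive. Most enzymes had a large fold change that did not pass, and in them rescue 1 and 2 lay far below rescue 3 and 4. Without rescue 1 the test called 15 members higher and 1 lower (32.5% of all genes), and without rescue 2 it called 11 and 1 (31.6%). Leaving out a low rescue library favours higher calls, and rescue 1 was the lowest for 26 of 28 members. Leaving out any 1 of the other libraries gave 4 or 5 calls in all. DESeq2 called 15 higher and 1 lower on all libraries, and limma voom 7 and 1. The summed CPM of the 10 luteal markers was 3948 to 4900 in Fshb(-/-) and 9713 to 26360 in the rescue, 8 of them rose and 1 fell, and their part in these differences was not tested.

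Hsd17b7 was the member with the largest change. It had 50.6, 46.8, 47.3 and 47.0 CPM in the 4 Fshb(-/-) libraries and 187, 340, 2294 and 2719 in rescue 1 to 4. Even the lowest rescue library was above all Fshb(-/-) libraries. The log2 fold change was 4.85 ± 0.98, or 28.9-fold (edgeR, adjusted p = 0.0110), and no alternative ended the call (adjusted p up to 0.047). Dhcr7 had 63.1, 50.9, 45.4 and 49.3 CPM in Fshb(-/-) and 46.6, 63.6, 540 and 620 in the rescue. Rescue 1 and 2 lay at the level of Fshb(-/-), and rescue 3 and 4 far above it. Its log2 fold change of 2.61 ± 0.91 did not pass (edgeR, adjusted p = 0.0706), and without rescue 1 it was 2.97 ± 0.72 (adjusted p = 0.0252).

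The mevalonate and squalene genes had the same form. Fdps had 89.7, 75.9, 71.2 and 77.8 CPM in Fshb(-/-) and 86.1, 114, 725 and 834 in the rescue, a log2 fold change of 2.48 ± 0.80 (edgeR, adjusted p = 0.0556). Sqle had 74.0, 68.5, 65.1 and 69.6 CPM against 59.6, 80.4, 411 and 476, a log2 fold change of 1.89 ± 0.72 (adjusted p = 0.0884). In both genes rescue 1 overlapped Fshb(-/-). Both passed without rescue 1 (adjusted p = 0.0197 and 0.0291), as did Hmgcs1, Pmvk, Mvd, Idi1, Lss, Msmo1, Sc5d, Dhcr7 and Srebf2. Rescue 1 was the lowest rescue library for 26 of 28 members, so leaving it out favours higher calls. The calls made without it are no separate support. The log2 fold changes of the other members of these arms apart from Ggps1 ran from 0.50 (Fdft1) to 1.86 (Idi1) on all libraries. Exons of other genes overlap Fdps (Gm43738, same strand) and, on the other strand, Fdft1 (Ctsb), Cyp51 (Akap9), Srebf1 (Rai1) and Npc1 (Rmc1), so these values are uncertain to that extent. Tm7sf2, a sterol C14 reductase gene, shares exon sequence with Vps51 on its own strand, so its values are uncertain; it had 12.9 to 21.5 CPM in Fshb(-/-) and 8.53, 11.6, 113 and 130 in the rescue.

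Ebp and Ggps1 passed with small differences. Ebp had 29.0, 25.9, 24.5 and 26.3 CPM in Fshb(-/-) and 30.5, 32.7, 56.8 and 70.5 in the rescue, with no overlap and a log2 fold change of 0.85 ± 0.27 (edgeR, adjusted p = 0.0466). Ggps1 had 74.4, 72, 64.4 and 63.3 CPM against 79.8, 81.2, 75.4 and 76.1, a log2 fold change of 0.19 ± 0.06 (adjusted p = 0.0448). For Ggps1 the rescue libraries were above Fshb(-/-) by little, and rescue 3 and 4 were the lower pair. Neither call is steady: that of Ggps1 was lost on leaving out Fshb(-/-) 2, 3 or 4 or any 1 rescue library (adjusted p up to 0.121 over all alternatives), and that of Ebp on leaving out any 1 Fshb(-/-) library or rescue 3 or 4 (up to 0.126). Lbr went the other way, with 58.8, 52.3, 55.3 and 54.7 CPM in Fshb(-/-) and 47.0, 42.3, 45.3 and 45.3 in the rescue. All rescue libraries were below all Fshb(-/-) libraries, at a log2 fold change of -0.30 ± 0.06 (adjusted p = 0.00386) that passed under every alternative.

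In the control circuit, Scap and Insig2 rose, and rescue 1 and 2 were also above every Fshb(-/-) library. Scap had 159, 184, 182 and 188 CPM in Fshb(-/-) and 253, 260, 430 and 467 in the rescue, a log2 fold change of 0.98 ± 0.21 (edgeR, adjusted p = 0.0113). Insig2 had 38.1, 37.0, 38.8 and 37.8 CPM against 44.4, 48.7, 51.5 and 53.4, a log2 fold change of 0.39 ± 0.06 (adjusted p = 0.00206). Neither gene's groups overlapped, and no alternative ended either call. Insig1 had 131, 113, 117 and 129 CPM against 85.3, 89.9, 225 and 271: rescue 1 and 2 were below Fshb(-/-) and rescue 3 and 4 above it, and the difference did not pass (0.45 ± 0.40, adjusted p = 0.421). Srebf2 had 126 to 145 CPM in Fshb(-/-) and 144 to 225 in the rescue (0.44 ± 0.15, adjusted p = 0.0546), and Srebf1 55.6 to 63.3 against 63.9 to 71.8 (0.16 ± 0.06, adjusted p = 0.0733). Of the transport genes, Stard4, which moves cholesterol through the cytosol, had 51.0 to 58.5 CPM in Fshb(-/-) and 42.2, 48.0, 164 and 202 in the rescue. Npc2 had 223, 209, 197 and 223 CPM against 206, 215, 325 and 370, with overlap (0.39 ± 0.19, adjusted p = 0.157). Without overlap, 7 members were higher and 1 lower in the rescue, beside 16.8% and 17.4% of all genes.

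The rescue against Fshb(-/-) and WT against Fshb(-/-) share no library, so their difference was tested in a fit over experiments 1 and 2. No member passed, where 0.153% of 18255 genes did; edgeR, DESeq2 and limma voom called none and gave none an unadjusted p under 0.05. The median difference over the members was 0.71 on the log2 scale. For Hsd17b7 it was 0.20 ± 1.69 and for Scap 0.10 ± 0.33; for Dhcr7 it was 1.80 ± 1.25. With errors of this size a large difference between the experiments was not detectable for Hsd17b7 or Dhcr7.

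**Figure D4:**
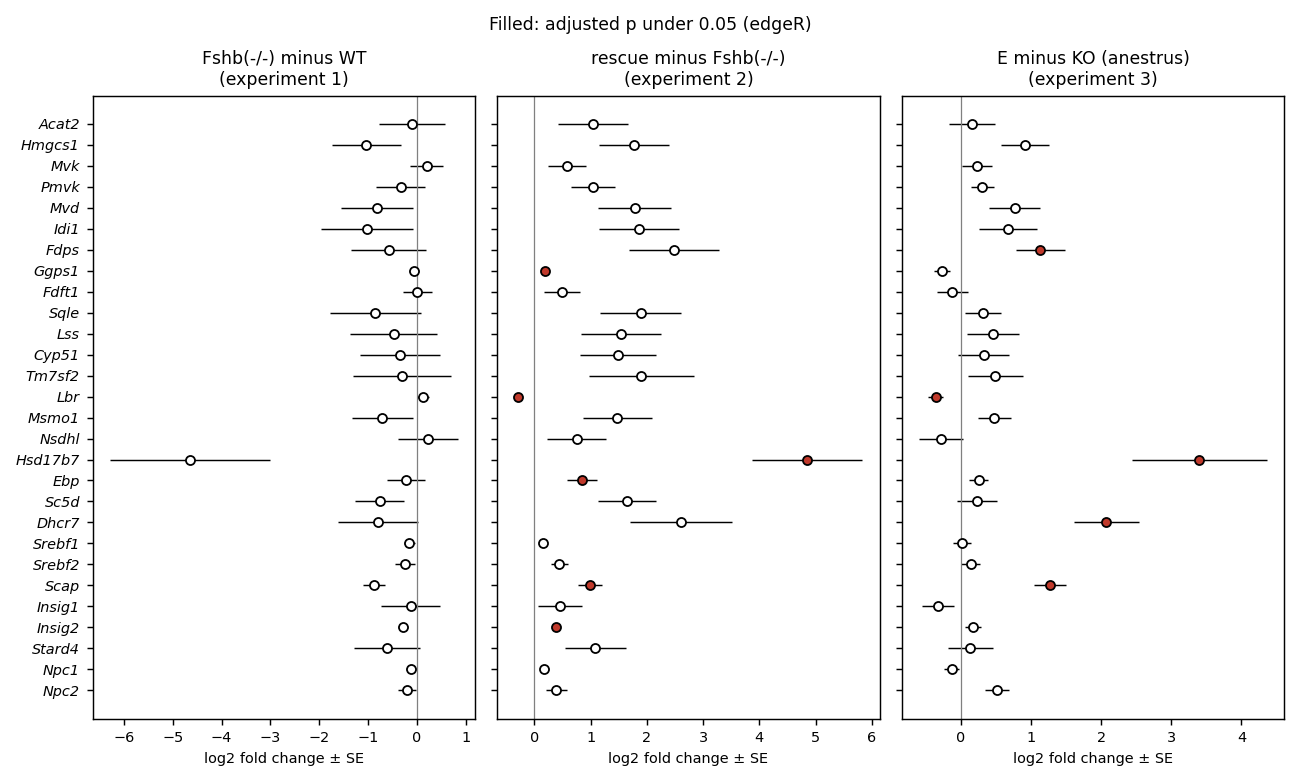
Log2 fold change of each member (points, bars give ± SE) for Fshb(-/-) minus WT, rescue minus Fshb(-/-) and E minus KO (anestrus); filled points passed at an adjusted p under 0.05. The largest change in each panel is that of Hsd17b7 (-4.64, 4.85 and 3.40), with wide errors, and Lbr lies opposite to Scap in all panels.

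In experiment 3, each stage differed from KO (anestrus) in few members. At E, 4 members rose, Scap, Dhcr7, Hsd17b7 and Fdps, and Lbr fell, where 18% of the 16944 genes tested were called (8.98% in each direction). At DE, Hsd17b7 rose and none fell, beside 25.1% of all genes. At PE, Lbr and Insig1 fell and none rose, beside 33.8%. The member medians were 0.28 at E, 0.14 at DE and -0.17 at PE on the log2 scale, and those of all genes 0.01 each. These comparisons share the KO (anestrus) libraries. Of the 10 luteal markers 7 rose at E, 6 at DE and 6 at PE. Of the 11 oviduct epithelium markers tested, 8 rose at DE, 9 at PE and 0 at E, and none fell. All 8 oocyte markers fell at DE and PE, and 3 fell at E. The oviduct marker index was 1.5 to 2.1 in KO (anestrus), below that of PE and of DE 1, 2 and 4. For PE and most of DE, stage and oviduct marker level therefore cannot be told apart in these comparisons. The part of these markers was not tested. Without DE 3 and E 3, the calls were 9 higher and 1 lower at E (20.7% of all genes), 2 and 3 at DE (35.8%) and 3 and 3 at PE (37.6%). The members that then passed in addition, other than those described below, were Hmgcs1 (log2 fold change 1.19 ± 0.27), Mvd (1.0 ± 0.31) and Msmo1 (0.65 ± 0.18), higher at E. Fdft1 (-0.54 ± 0.19), Nsdhl (-0.72 ± 0.245) and Insig1 (-0.52 ± 0.18) were lower at DE, and Acat2 (-0.75 ± 0.23) was lower at PE. E 3 was the lowest E library for Hmgcs1 and Msmo1, and DE 3 the highest DE library for Fdft1, Nsdhl and Insig1. Leaving both out therefore favours the calls of these genes, which are no separate support. At E, the count of 5 called members became 2 on leaving out any 1 KO (anestrus) library or E 2, 3 without E 1 and 8 without E 3. At DE the count of 1 became 3 without DE 3. The call of Hsd17b7 at DE was lost on leaving out DE 1, DE 4 or any 1 KO (anestrus) library, and the count of 2 at PE became 0 without KO (anestrus) 1, 3 or 4 or PE 3 and 1 without KO (anestrus) 2, PE 1 or PE 2. Both Lbr and Insig1 lost their calls at PE without PE 2 and without PE 4. The member counted without PE 2 was thus another one.

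Scap had 145, 137, 141 and 141 CPM in KO (anestrus), 201, 201, 287 and 146 in the DE libraries, 194, 319, 202 and 137 in PE and 385, 380, 261 and 335 in E. Every E library was above every KO (anestrus) library, while PE 4 lay within their range. The log2 fold change at E was 1.27 ± 0.23 (edgeR, adjusted p = 0.00205), steady under every alternative; at DE it was 0.57 ± 0.23 and at PE 0.59 ± 0.23 (adjusted p = 0.0819 and 0.0579). Without DE 3 and E 3, Scap passed at PE (0.64 ± 0.19, adjusted p = 0.0191) and not at DE (0.42 ± 0.21, adjusted p = 0.136). Dhcr7 had 44.4, 53.4, 52.1 and 37.3 CPM in KO (anestrus), 64.9, 54.3, 147 and 48.6 in the DE libraries, 59.5, 145, 44.3 and 29.5 in PE and 213, 270, 119 and 185 in E. E was again above KO (anestrus) in all libraries, with a log2 fold change of 2.07 ± 0.47 (adjusted p = 0.00781) that passed under every alternative. DE and PE each had 1 library, DE 3 and PE 2, that stood far above the rest.

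Hsd17b7 and Fdps rose at E with overlap. Hsd17b7 had 55.7, 48.7, 48.0 and 40.9 CPM in KO (anestrus), 433, 28.8, 841 and 427 in the DE libraries, 54.2, 58.1, 65.6 and 38.5 in PE and 607, 1299, 44.3 and 92.3 in E. DE 2 and E 3 lay at or below the KO (anestrus) level and the PE libraries close to it, while the other DE and E libraries were above. Its log2 fold changes were 3.40 ± 0.96 at E and 3.16 ± 0.95 at DE (edgeR, adjusted p = 0.0260 and 0.0284), and 0.16 ± 0.89 at PE. With DE 3 and E 3 left out they were 3.82 ± 0.86 at E and 2.66 ± 0.83 at DE (adjusted p = 0.00978 and 0.0267). Fdps had 71, 81.6, 86.3 and 67.1 CPM in KO (anestrus), 69.4, 85.7, 181 and 91.0 in the DE libraries, 97.3, 93.9, 68.8 and 45.4 in PE and 192, 265, 84.3 and 130 in E. Only E 3 among the E libraries lay within the KO (anestrus) range. Its log2 fold change at E was 1.13 ± 0.36 (adjusted p = 0.0395). The calls at E of Fdps and Hsd17b7 were lost on leaving out any 1 KO (anestrus) library or E 2, and that of Fdps also without E 1 (adjusted p up to 0.124 and 0.0887 over all alternatives).

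Lbr and Insig1 were the members that fell. Lbr had 49.1, 49.4, 54.9 and 55.3 CPM in KO (anestrus), 36.0, 44.1, 49.4 and 51.2 in the DE libraries, 44.0, 38.6, 44.1 and 38.9 in PE and 41.0, 39.1, 46.7 and 35.8 in E. The PE and E libraries were all below KO (anestrus), with log2 fold changes of -0.33 ± 0.11 and -0.36 ± 0.11 (edgeR, adjusted p = 0.0297 and 0.0338). Leaving out KO (anestrus) 1, 3 or 4 or any 1 PE library ended the call at PE, and any 1 KO (anestrus) library or E 1, 2 or 4 ended that at E. Insig1 had 109, 106, 110 and 95.7 CPM in KO (anestrus), 54.4, 92.3, 135 and 67.3 in the DE libraries, 76.8, 60.3, 71.6 and 52.4 in PE and 83.9, 107, 71.3 and 72.8 in E. PE lay below KO (anestrus) in all libraries (-0.69 ± 0.23, adjusted p = 0.0319), a call lost on leaving out any 1 KO (anestrus) library or PE 2, 3 or 4.

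The remaining members given by library did not pass against KO (anestrus) with all libraries. Without DE 3 and E 3, Ebp (0.41 ± 0.12, edgeR, adjusted p = 0.0318) and Npc2 (0.66 ± 0.16, adjusted p = 0.0117) were higher at E, and Insig2 (0.30 ± 0.10, adjusted p = 0.0288) was higher at PE. For both Ebp and Npc2, E 3 was the lowest E library, so leaving it out favours their calls. Sqle had 61.2, 62.7, 76.2 and 65.4 CPM in KO (anestrus), 56.8, 56.1, 109 and 69.9 in the DE libraries, 68.4, 67.1, 56.9 and 35.5 in PE and 89.0, 117, 61.4 and 61.5 in E. DE 3, E 1 and E 2 were its high libraries, as for Fdps. Ebp had 25.8, 30.4, 29.4 and 28.7 CPM, then 23.97, 31.9, 31.8 and 32.3, then 28.7, 28.9, 25.9 and 24.5, and last 35.3, 43.3, 25.3 and 32.2 in the same order of groups. Ggps1 had 81.2, 81.1, 86.4 and 75.7 CPM in KO (anestrus), 76.8, 55.0, 74.3 and 74.7 in the DE libraries, 64.7, 59.7, 76.8 and 67.4 in PE and 67.8, 73.7, 57.0 and 71.1 in E, so that all E libraries lay below KO (anestrus), opposite to its difference in the rescue. Insig2 had 44.9, 47.2, 43.3 and 44.5 CPM in KO (anestrus), 58.5, 49.9, 42.7 and 49.2 in the DE libraries, 50.7, 55.3, 47.9 and 60.4 in PE and 45.4, 57.8, 42.6 and 56.4 in E. For Insig2, PE alone was above KO (anestrus) in all libraries, at 0.25 ± 0.11 (edgeR, adjusted p = 0.102). Npc2 had 194, 217, 222 and 181 CPM in KO (anestrus), 208, 230, 259 and 193 in the DE libraries, 159, 254, 185 and 249 in PE and 333, 354, 221 and 253 in E (0.51 ± 0.17 at E, adjusted p = 0.0507). The E libraries other than E 3 were above all of KO (anestrus).

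Between stages, E had more transcript of many enzymes than PE or DE once DE 3 and E 3 were left out, and no member passed with all libraries. With all libraries edgeR called none of the 16944 genes tested for E against PE, DE against E or PE against DE (0.0% each). It gave 15, 3 and 1 members an unadjusted p under 0.05 in these comparisons. DESeq2 called 3, 0 and 0 members, and limma voom called 9 higher and 1 lower at E against PE and none in the others. Without DE 3 and E 3, 14 members were higher at E than at PE and none lower, where 15.5% of all genes were called and 3.93% were higher. Those members were Acat2, Hmgcs1, Mvd, Idi1, Fdps, Lss, Cyp51, Msmo1, Hsd17b7, Ebp, Sc5d, Dhcr7, Scap and Npc2. The largest log2 fold changes were 3.61 ± 0.86 for Hsd17b7 (edgeR, adjusted p = 0.0135), 1.67 ± 0.40 for Dhcr7 (0.0133) and 1.35 ± 0.26 for Fdps (0.00258). For Scap it was 0.78 ± 0.21 (0.0206). The member median was 0.60 without those libraries and 0.49 with all.

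Against DE, 8 members were higher at E without DE 3 and E 3: Acat2, Hmgcs1, Fdps, Cyp51, Msmo1, Dhcr7, Scap and Npc2. Of all genes 16% were called and 3.88% were in that direction. Dhcr7 differed most, with a log2 fold change of DE against E of -1.99 ± 0.45 (edgeR, adjusted p = 0.00893), and Scap by -1.0 ± 0.23 (0.00774). None passed between PE and DE, with or without those libraries. E 3, rich in oviduct markers, was the lowest E library for 19 of 28 members. DE 3, poor in oviduct markers, was the highest DE library for 20. Leaving both out therefore raises E and lowers DE for most members, so the library values are no separate support for the calls. Fshb(+/-) 3 of experiment 1 was also rich in oviduct markers, with an index of 5.1 beside 1.1 and 1.8 in Fshb(+/-) 1 and 2. That library was the highest of its group for 25 members. The part of the oviduct markers was not tested. Leaving out E 3 alone gave 8 calls for E against PE, all higher, and leaving out PE 2 alone gave 2. The oviduct marker index was 5.0 to 5.4 in the PE libraries and 1.0 to 1.2 in E 1, 2 and 4, so stage and oviduct marker level cannot be told apart in the 14 libraries left. The luteal index was 8.3, 9.6, 7.7 and 8.8 in E 1 to 4, 8.8, 6.9, 8.7 and 8.4 in DE 1 to 4 and 7.5 to 8.5 at PE. DE 1 had the highest index of its group and was the lowest library for 16 of 28 members. The part of the luteal index was not tested.

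**Figure D5:**
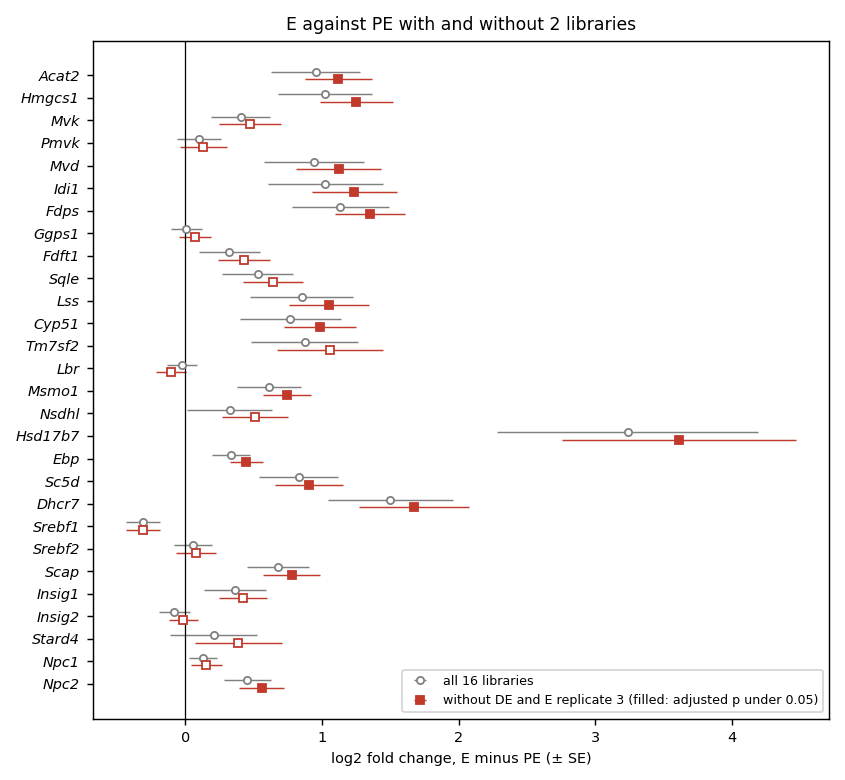
Log2 fold change (± SE) of each member for E minus PE, with all 16 libraries of experiment 3 (circles) and without DE 3 and E 3 (squares, filled where the adjusted p is under 0.05). Most estimates move up slightly, most errors shrink, and 14 squares are filled where no circle passes.

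The rest of the pathway was followed in lists of the genes around it. Of 8 genes of cholesterol ester and steroid use, 5 rose and none fell in the rescue, among them Scarb1, the receptor that takes cholesterol from lipoproteins (log2 fold change 2.05 ± 0.50, edgeR, adjusted p = 0.01995), Cyp11a1, which cuts the side chain of cholesterol (1.93 ± 0.25, adjusted p = 0.00111), Hsd3b1 and Lipa. Of all genes 15.8% were higher and 16.2% lower in that comparison. In Fshb(-/-) against WT 3 of the 8 fell and none rose (Hsd3b1, Cyp11a1 and Lipa), where 3.34% of all genes were lower. Against KO (anestrus) 5 rose at E (8.98% of all genes were higher), 5 at PE (17.5%) and 4 at DE (13.5%). Star, Cyp11a1 and Hsd3b1 of this list are also luteal markers here. The list medians were 1.15 in the rescue, -0.81 in Fshb(-/-) against WT and 1.27 at E.

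Among 13 genes of fatty acid synthesis that SREBP-1 is known to drive, the members did not move as one. In the rescue, where 15.8% of all genes were higher and 16.2% lower, 5 rose and 1 fell: Elovl6, an elongase, rose by 1.03 ± 0.09 (edgeR, adjusted p = 6.4e-05) and Gpam, the first enzyme of glycerolipid synthesis, by 1.29 ± 0.20, while the desaturase gene Fads2 had -1.33 ± 0.13. Against WT, Elovl6 (-0.79 ± 0.14) and Gpam (-0.86 ± 0.20) fell in Fshb(-/-). Against KO (anestrus), Fads1 fell at DE, PE and E with log2 fold changes of -1.60, -1.67 and -1.65 (SE 0.16 each) and Fads2 with -2.10, -2.02 and -2.47, while Gpam rose at each stage (0.77, 0.94 and 1.22). Srebf1 itself did not pass in any of these comparisons with all libraries. Without DE 3 and E 3 it was higher at DE and PE than in KO (anestrus), by 0.39 ± 0.12 and 0.37 ± 0.11 (adjusted p = 0.0240 and 0.02002). DE 3 was the lowest DE library for Srebf1 (52.4 CPM, highest 77.6), so leaving it out favours the call at DE.

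Among 9 genes of oxysterol production and the LXR response, the cell's answer to sterol excess, 3 rose and 1 fell in the rescue, beside 15.8% and 16.2% of all genes. Abcg1, a cholesterol exporter, rose by 1.49 ± 0.16, Ch25h, which makes 25-hydroxycholesterol, by 2.74 ± 0.50, and Lpcat3 by 0.68 ± 0.14, while Cyp27a1, the mitochondrial sterol 27-hydroxylase, had -1.99 ± 0.19 (edgeR, adjusted p = 0.000219). Cyp27a1 was also higher in Fshb(-/-) than in WT (1.67 ± 0.22) and lower at DE, PE and E than in KO (anestrus) (-2.01, -1.99 and -2.22). Abcg1 was higher at each of the 3 stages than in KO (anestrus) (1.08, 1.23 and 0.99). Of 9 genes of SREBP cleavage and sterol-regulated degradation, Mbtps1, the site-1 protease that cuts SREBPs, fell slightly in the rescue (-0.21 ± 0.05) and at DE, PE and E (-0.40, -0.43 and -0.37), whereas Mbtps2 rose by 0.26 ± 0.06 in the rescue. Rnf145, a ubiquitin ligase of this system, fell in Fshb(-/-) against WT (-0.65 ± 0.15) and rose at DE, PE and E (0.38, 0.49 and 0.31).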

How the data were processed

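Mouse ovary RNA was measured in 33 libraries. Per the labels' protocols, total RNA came from micro-columns with a DNase step, experiments 1 and 2 were sequenced at a university core, and experiment 3 was poly(A)-selected, prepared with a KAPA kit and sequenced as paired ends. The authors deposited 1 table of estimated counts (expected counts, which need not be whole) for 54347 genes; 10.5% to 20.1% of the values per library were not whole. Salmon, DESeq2 and the build GRCm38 are named, per the submitters' processing notes; no version, setting or annotation is given in the sources used here. Salmon divides reads between overlapping or near-identical genes, so such genes are uncertain.

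Identifiers were matched to GENCODE M21 (GRCm38), 53307 with and 54094 without version; 253 without a symbol held 0.00553% of the counts. Counts were rounded to whole numbers. edgeR 4.0.16 (R 4.3.3) was run separately on each experiment with TMM, filterByExpr, glmQLFit (robust), glmQLFTest over 10 contrasts and Benjamini-Hochberg adjustment over all genes tested (threshold 0.05). CPM are scaled within an experiment, so levels are compared only there. Alternatives were DESeq2 1.42.0, limma voom 3.58.1 with quality weights, other scaling and filters, only the groups compared, a replicate block, each library left out, and DE 3 with E 3 left out. The procedure was run on simulated counts with the same spread setting for every gene, which does not cover the wide spread of the enzyme genes. Libraries of a group always differed by more than sampling noise (lowest chi-square over degrees of freedom, 5.34). Depth was 10085367 to 23700051 counts per library, and a count of 0 allows up to 3 counts, for counting error only.

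The members and lists were chosen with earlier results of these data known. Values in every library are given for 11 members: those past the threshold in any contrast, and the member with the smallest p of each role that had none. Hmgcs1, Tm7sf2, Stard4, Srebf1 and Srebf2 are also given by library or range, a choice made after their values were seen. Other genes are named by smallest p, at most 4 per list and contrast. Promoter windows (RefSeq) were searched on both strands.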

Additional observations from a re-analysis of the deposited data

Results flagged for a closer look

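In groups of 4 libraries, 9 of the 168 sets of member values held a library whose distance to its nearest neighbour took more of the group's range than Dixon's 95% critical value for 4 libraries allows; chance alone flags about 1 set in 20. At DE, replicate 3 was high for Lss (87.0 CPM, others 33.8 to 40.1) and Dhcr7 (147, others 48.6 to 64.9), replicate 2 was low for Ggps1 (55.0, others 74.3 to 76.8) and replicate 1 low for Ebp (23.97, others 31.8 to 32.3). The DE 3 library also had the lowest oviduct marker index of its group, 1.3 against 4.9 to 5.5. In Fshb(-/-) of experiment 2, replicate 1 was high for Hmgcs1 (352 CPM, others 260 to 275) and Hsd17b7 (50.6, others 46.8 to 47.3); it was the highest library for 23 of 28 members, and for 26.3% of all genes with a mean of at least 10 CPM. Nsdhl was high in PE 1 (40.8 CPM, others 22.9 to 25.5), Mvd in KO (anestrus) 3 (14.8, others 11.2 to 11.3) and Srebf1 in rescue 4 (71.8, others 63.9 to 65.2).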

How the results depend on the processing

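No member's call changed direction under any alternative; counts of called members moved, and the cause was not tested. With DESeq2 the counts became 2 for Fshb(-/-) against WT, 5 against Fshb(+/-), 16 for the rescue, 3 at DE and 5 at PE against KO (anestrus), and 3 for E against PE. With limma voom they became 2, 4, 2 at DE, 8 at PE, 10 at E and 10 for E against PE. Median-of-ratios scaling gave 1 for Fshb(-/-) against WT, and no scaling moved the median of all genes by 0.1 (log2). Fitting only the groups compared gave 1 for Fshb(-/-) against WT, 2 at DE and 10 at PE. With no filter the counts were 1 against Fshb(+/-), 0 at DE, 1 at PE and 2 at E, and with a filter at a mean of 1 CPM 4 at PE. Without DE 3 and E 3 they were 5 at DE, 6 at PE, 10 at E, 14 for E against PE and 8 for DE against E. Leaving out each library in turn gave 0 to 1 for Fshb(-/-) against WT, 1 to 2 against Fshb(+/-), 4 to 16 for the rescue, 0 to 3 at DE, 0 to 3 at PE, 2 to 8 at E and 0 to 8 for E against PE. Fshb(+/-) against WT, PE against DE and the difference between rescue and WT kept a count of 0 under every alternative run.

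Replicate numbers did not pair the libraries: correlations of same-numbered deviations ran from -0.081 to 0.097 in experiment 1, -0.153 to 0.141 in experiment 2 and -0.754 to 0.233 in experiment 3. With the replicate number as a block, the counts became 1 for Fshb(-/-) against Fshb(+/-), 0 at DE and 3 at E. In experiment 2 the fit of only the groups compared is the fit reported, since it holds no other group. Groups of 3 or 4 libraries, with enzyme levels that differ several-fold inside a group, limit what can be called. No member was at 0 in any library; the lowest value was 5.11 CPM (Tm7sf2 in WT 3).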

Other observations

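The branch of the pathway that leads from isoprenoids to products other than sterols showed small differences. Of 9 genes that make ubiquinone and dolichol or attach prenyl groups to proteins, 2 rose and 1 fell in the rescue, where 15.8% of all genes were higher and 16.2% lower. Fntb, the farnesyltransferase beta subunit, was higher in Fshb(-/-) than in WT (log2 fold change 0.56 ± 0.11, edgeR, adjusted p = 0.0192) and than in Fshb(+/-) (0.50 ± 0.11, adjusted p = 0.0177). It was lower in the rescue than in Fshb(-/-) (-0.31 ± 0.08, adjusted p = 0.0153) and lower at DE, PE and E than in KO (anestrus) (-0.29, -0.47 and -0.36). Nus1, a subunit of the dolichol-making prenyltransferase, and Pggt1b, a beta subunit that attaches geranylgeranyl groups, rose in the rescue by 0.22 ± 0.05 and 0.22 ± 0.06. The list medians were 0.07 in both Fshb(-/-) against WT and the rescue.

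Tmem97 and Erlin1, of the list of sterol-regulated degradation, were lower at DE and PE than in KO (anestrus), with log2 fold changes of -0.46 ± 0.12 and -0.48 ± 0.12 for Tmem97 and for Erlin1 of -0.39 ± 0.12 and -0.37 ± 0.12; Erlin1 was also lower at E (-0.38 ± 0.12).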
